A study of Sus scrofa with 8 samples.

Results

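Of 10 genes for the uptake and mitochondrial oxidation of fatty acids, 9 had a spot on the array used to compare skeletal muscle of pigs on a high energy diet with that of pigs on a low energy diet. They were chosen by name: every spot whose single symbol in the platform annotation was CD36, FABP3, LPL, CPT1B, ACADS, ACADVL, HADHA, HADHB or ECHS1 was taken, which gave 20 of the 9984 spots, and 9 of the 2922 genes that the annotation names singly. CPT1B had 4 spots, in 2 neighbouring pairs, and the other genes had 2 each. ACADM, the dehydrogenase for fatty acids of medium chain length, had no named spot and was not analysed here.

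Each of the 8 arrays carried RNA of 1 high energy and 1 low energy sample in different dyes. Samples were paired into 4 couples, each hybridised in both dye orientations. Low energy animals or pools 49, 61 and 142 met high energy 40, 41 and, once more, 40 in couples 1, 2 and 3, and be met ae in couple 4. A dye swap repeats the same pair of RNAs, so both arrays together count as 1 replicate (n = 4 couples), and sample 40 ties couples 1 and 3 to each other. The sources used here do not give breed, age, muscle, feeds, or whether a sample was 1 animal or a pool. P-values therefore reflect the spread among these couples, some of which may be technical, and no spread among known animals. That spread is not the only input. The limma fit draws the variance of each feature towards that of all features, and the correlation for the shared sample was preset. ACADVL, for example, had an SE of 0.087 where the SD of its couple means was 0.067.

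Fatty acids reach a muscle fibre from triglyceride that lipoprotein lipase (LPL) splits at the capillary wall. CD36 helps them across the membrane, and FABP3, the fatty acid binding protein of heart and skeletal muscle, carries them in the cytosol. CPT1B couples them to carnitine for entry into the mitochondrion, where beta-oxidation removes carbons in repeated rounds of dehydrogenation, hydration, dehydrogenation and thiolysis. Slow, oxidative fibres rely on this pathway more than fast, glycolytic ones. The array measured the whole tissue, in which fewer cells of a type and less RNA per cell cannot be told apart.

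A value is the log2 ratio of the 2 channels of an array, centred on the array's median. In the labels, channel 1 is low energy and channel 2 high energy, and the series' description treats the low energy samples as reference. A positive value is thus likely to mean more transcript in high energy muscle, though no label states how the ratio was formed. Beside each ratio stands the turned value, which averages the arrays after those that had the high energy RNA in dye 3 changed sign. It is the ratio of high over low energy if the values were formed as dye 5 over dye 3. If they were formed as dye 3 over dye 5, it is that ratio with the opposite sign. If they were formed as neither, it is the dye effect. The numbers 3 and 5 in the array titles are read here as the Cy3 and Cy5 dyes. The fit gives couples 1 and 3 less weight each than couples 2 and 4, because they share a sample.

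Spots with a value made up 77.6% to 94.4% of an array, and the SD of an array's log2 ratios was 0.341 to 0.724. The couple 4 array with high energy in dye 3 had the lowest share of spots with a value, 77.6%. Its SD of 0.70 was the highest but one. Many deposited values can be written as the log2 of a ratio of small whole numbers. The larger of these, the recovered signal, bounds a spot's brightness from below and does not rank genes by expression. Its median was 446 over all spots. Over the spots of genes that belong to the labelled tissue it was 2563 for 11 fast fibre genes and 599 for 12 slow fibre genes. For the fatty acid genes, 146 of 160 possible spot values were present. Of these genes, 7 were measured on all 8 arrays, ECHS1 on 7 and CD36 on 6.

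No fatty acid gene passed the test, and neither direction prevailed. In limma's test of the mean of the couples against 0, 0 of the 8 genes tested had an adjusted p under 0.05, against 0 of all 5025 features (0%). Every one of the 8 had an adjusted p = 0.996 in limma, with Benjamini-Hochberg adjustment over the 5025 features. At an unadjusted p under 0.05 there were 0 of the 8 genes and 190 of the 5025 features (3.78%). Of the 8 ratios, 4 lay above 0 (CPT1B, ACADS, HADHA and HADHB) and 4 below (LPL, FABP3, ACADVL and ECHS1), while 46.4% of all features lay above 0. The median ratio was -0.021 for the 8 genes and -0.012 for all features. The median size of a ratio, regardless of sign, was 0.082 for the 8 genes and 0.090 for all features, and the median SE was 0.12 and 0.13. Turned, 2 of the 8 values lay above 0, against 47.4% of all features. An unadjusted p under 0.05 in the turned fit was reached by 0 of the 8 genes and 133 of 5025 features (2.65%).

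**Figure D1:**
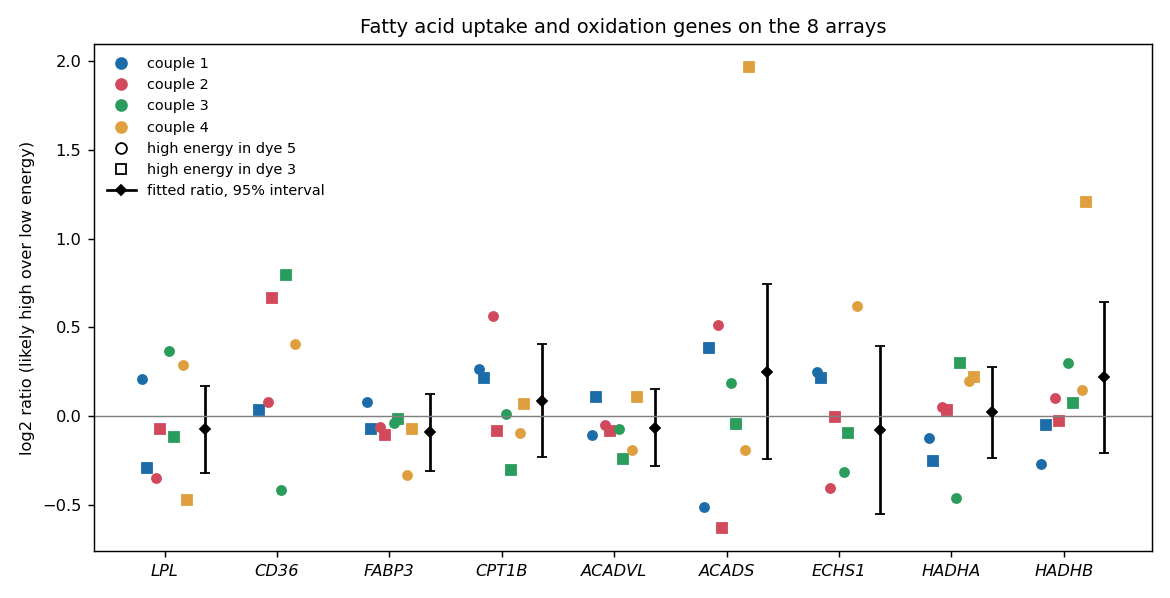
Log2 ratio (likely high over low energy) of each fatty acid gene on each array, as the mean of its spots; colours are couples, circles are arrays with high energy in dye 5 and squares those with high energy in dye 3. Black diamonds and bars are the fitted ratio with its 95% interval from limma (none for CD36, which was not tested). All 8 intervals span 0, and the 2 highest points, 1.97 for ACADS and 1.21 for HADHB, come from 1 array.

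LPL frees fatty acids for uptake, and its couple means from couple 1 to 4 were -0.044, -0.21, 0.12 and -0.093. Of its couples 3 lay below 0, and the fitted ratio was -0.075 ± 0.099 (SE, 4 couples) with a 95% interval of -0.32 to 0.17. That interval corresponds to 0.80 to 1.13 times the low energy level. Without couple 2 the ratio was -0.017, and without couple 3 it was -0.12. The arrays of a couple had the same sign in 1 of 4 couples. With high energy in dye 5, LPL had 0.21, -0.35, 0.37 and 0.29 on the arrays of couples 1 to 4. With high energy in dye 3 it had -0.29, -0.071, -0.12 and -0.47, all below 0. Its turned value was 0.17 ± 0.12, larger than the ratio, and did not pass either (adjusted p = 0.998 in limma).

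CD36, the fatty acid translocase, was measured in both orientations in only couples 2 and 3, so it fell short of the 3 couples required and was not tested. Its values were 0.080 and 0.66 in couple 2, and -0.42 and 0.79 in couple 3, with high energy in dye 5 and in dye 3 respectively. On the single arrays that measured couples 1 and 4 it had 0.036 (high energy in dye 3) and 0.41 (high energy in dye 5). CD36 thus lay above 0 on 5 of 6 arrays, and the 2 orientations of couple 3 pointed in opposite directions. Singly, spot 1 lay above 0 on 4 of 6 arrays and spot 2 on 3 of 5. The spots had opposite signs in couple 1 (0.17 and -0.099) and in couple 2 with high energy in dye 5 (-0.098 and 0.26). They had the same sign on the other arrays with both, and the 0.66 came from spot 1 alone. Turned, CD36 lay above 0 on 2 of 6 arrays, with -0.29 in couple 2 and -0.60 in couple 3. When 1 array was accepted as a couple, the ratio was 0.28 ± 0.11 in 4 couples with an adjusted p = 0.997 in limma. Its 95% interval, not adjusted for the number of features, was 0.00076 to 0.56 and did not reach 0. Over all features, 184 had an unadjusted p under 0.05 in the same limma fit, and 0 passed. In that fit the dyes were not balanced in couples 1 and 4.

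FABP3 was the most evenly measured of the 9 genes and lay slightly below 0. Its couple means were 0.0033, -0.084, -0.030 and -0.20, and it was below 0 on 7 of 8 arrays (turned, on 3 of 8). The array values ran from -0.33 to 0.077 with a median of -0.067. The fitted ratio was -0.092 ± 0.086 (turned -0.020), with an interval of -0.31 to 0.12, or 0.81 to 1.09 times the low energy level. Couple 4 contributed most of it, as the ratio without that couple was -0.044. The fitted ratios of its spots were alike, with -0.093 ± 0.098 for spot 1 and -0.091 ± 0.097 for spot 2. By array they were less so, as spot 1 was below 0 on 6 of 8 arrays and spot 2 on 4 of 8.

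CPT1B, the muscle form of carnitine palmitoyltransferase and the gate for long chain fatty acids into mitochondria, had couple means of 0.24, 0.24, -0.15 and -0.014. Couples 1 and 2 lay above 0 and couples 3 and 4 below. The fitted ratio was 0.086 ± 0.13 (turned 0.11), with an interval of -0.23 to 0.41. It was 0.026, 0.020, 0.16 and 0.13 without couples 1, 2, 3 and 4 in turn. This average joined spots that did not point one way. Tested alone, spot 1 had 0.32 ± 0.13 and spot 2 had 0.24 ± 0.26, while spot 3, of the other neighbouring pair, had -0.28 ± 0.12. Spot 4, the neighbour of spot 3, was measured on 5 arrays, with values from -0.45 to 0.89 and a median of -0.026. Spot 3 was below 0 on 6 of 8 arrays, and spot 2 above 0 on 6 of 8. No single spot passed (adjusted p = 0.999 in limma with every spot as a feature), the difference between the pairs was not tested, and the annotation gives all 4 spots the same 3 transcript accessions.

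Among the dehydrogenases of the first step, ACADVL, which acts on very long chains, stayed close to 0. Its couple means were 0.00048, -0.066, -0.16 and -0.044, and its array values ran from -0.24 to 0.11. The fitted ratio was -0.065 ± 0.087 (turned -0.044), with an interval of -0.28 to 0.15; without couple 3 it was -0.036. ACADVL and FABP3 had the smallest spread of the genes measured on all arrays: their SDs over 8 arrays were 0.12 each, and 8.24% and 7.31% of all features measured on 8 arrays had a smaller one.

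ACADS, which acts on short chains, had the widest spread. Its couple means were -0.065, -0.058, 0.071 and 0.89, so couple 4 stood far above the others. The fitted ratio was 0.25 ± 0.20 (turned -0.22) with an interval of -0.24 to 0.74, and it fell to -0.023 without couple 4; without couple 2 it was 0.38. The arrays of a couple disagreed in sign in 4 of 4 couples: -0.51 and 0.38 in couple 1, 0.51 and -0.63 in couple 2, 0.19 and -0.046 in couple 3, and -0.19 and 1.97 in couple 4, with high energy in dye 5 given first. The value of 1.97 came from spot 2 alone, as spot 1 had no value on that array. The recovered signal of spot 2 there, a lower bound on its brightness, was 63. The spots also differed from each other, with -0.28 ± 0.13 for spot 1 and 0.41 ± 0.21 for spot 2, in 3 couples each. The SD over 8 arrays was 0.82, and 95.9% of features had a smaller one.

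ECHS1, the hydratase of short chains that takes the second step, was measured in both orientations in couples 1 to 3. Its couple means there were 0.23, -0.20 and -0.20, and the dye swaps had the same sign in 3 of 3 couples. Its spots differed, with a median difference of 0.47 on 6 arrays, and spot 1 alone had -0.29 ± 0.26. Spots 1 and 2 had opposite signs in couple 2 with high energy in dye 3 (-0.72 and 0.71, mean -0.0026). They also did in couple 3, with -0.96 and 0.33 (high energy in dye 5) and 0.091 and -0.28 (dye 3). On the other arrays with both spots the signs were the same. The fitted ratio was -0.079 ± 0.18 (3 couples, turned -0.11), with an interval of -0.55 to 0.39, the widest but one of the 8. The 1 array of couple 4 that measured ECHS1 had 0.62, which the test did not use, and with it the ratio was 0.13. Without couple 1 the ratio was -0.20, and without couple 2 or couple 3 it was 0.015. High energy sample 40 was used in couples 1 and 3, in which ECHS1 had opposite signs.

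HADHA and HADHB encode the alpha and beta subunits of the mitochondrial trifunctional protein, which performs the last 3 steps on long chains. In the pig RefSeq table (assembly Sscrofa11.1) they are neighbours, with no protein coding gene listed between them. HADHA had couple means of -0.19, 0.042, -0.082 and 0.21, and a fitted ratio of 0.022 ± 0.10 (turned -0.064) with an interval of -0.23 to 0.28. Its ratio was 0.057, 0.014 and -0.059 without couples 1, 2 and 4. HADHB had couple means of -0.16, 0.036, 0.19 and 0.68, and a fitted ratio of 0.22 ± 0.17 (turned -0.14) with an interval of -0.21 to 0.64. Both subunits lay below 0 in couple 1 and above 0 in couples 2 and 4, and they had opposite signs in couple 3.

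The larger ratio of HADHB rested on 1 spot of 1 array. On the couple 4 array with high energy in dye 3, spot 2 had 2.37 and its duplicate, spot 1, had 0.042. The recovered signal of spot 2 there was 26, against a median of 986.5 for that spot over the arrays. Being a lower bound on brightness, the 26 does not show that the spot was dim. With that single value left out, an alternative chosen after the data were seen, the ratio was 0.044 ± 0.11. Without couple 4 it was 0.023, and spot 1 alone had -0.00050 ± 0.12 in 3 couples. Among the other values of spot 2, the highest was 0.78, in couple 3 with high energy in dye 5, where spot 1 had -0.18.

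**Figure D2:**
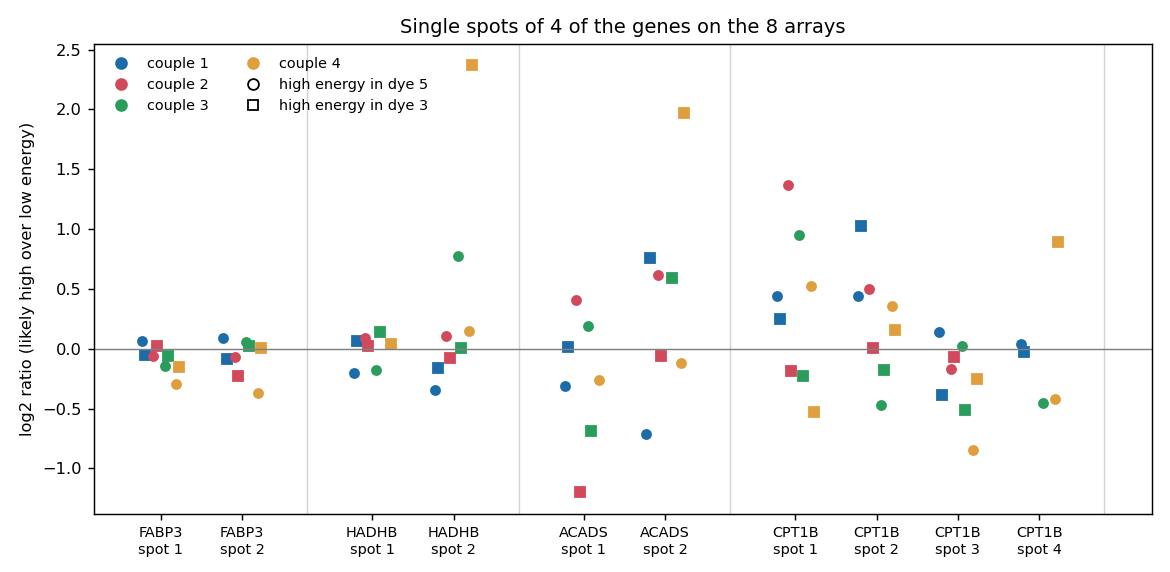
Log2 ratio (likely high over low energy) of each spot of FABP3, HADHB, ACADS and CPT1B on each array, with couples by colour and dye orientation by symbol. FABP3 stays between -0.37 and 0.090 on both spots, spot 2 of HADHB reaches 2.37 where spot 1 has 0.042, and the spots of CPT1B lie on different sides of 0.

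Agreement within a gene was no tighter between dye swaps than in the whole data set. The 2 orientations of a couple had the same sign in 17 of 33 cases for the 9 genes (51.5%), and in 50.6% of 20551 cases for all features. Duplicate spots of a gene on the same array had the same sign in 35 of 56 cases for the genes with 2 spots (62.5%), and in 55.8% of cases for all genes with 2 spots. Their median difference was 0.21 for the fatty acid genes and 0.28 for all genes. FABP3 had the smallest median difference between its spots, 0.084, and ACADS the largest, 0.57. Of the 7 genes with 4 couples, 0 kept 1 sign in all of them, while 604 of 3640 features did (16.6%). Of the 7 genes on all 8 arrays, 0 kept 1 sign throughout, while 82 of 3640 features did (2.25%).

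The spread over arrays was larger at a low recovered signal. Features measured on 8 arrays were put in 5 classes by their median recovered signal, of which the lowest ended at 256 and the highest began at 4096. The median SD was 0.44 in the lowest class, 0.38 in the next and 0.17 in the highest. CPT1B and ACADS, with median signals of 272 and 275, fell in the class after the lowest, and FABP3, with 7434.5, in the highest. The signal of FABP3 itself ranged widely, from 932 to 21497 over the arrays for spot 1. HADHB, at a signal of 2165, had an SD of 0.44 where the median of its class was 0.21. ACADVL, at 580, had an SD of 0.12 where the median of its class was 0.29. The other members of that class, LPL and HADHA, had SDs of 0.31 and 0.26.

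**Figure D3:**
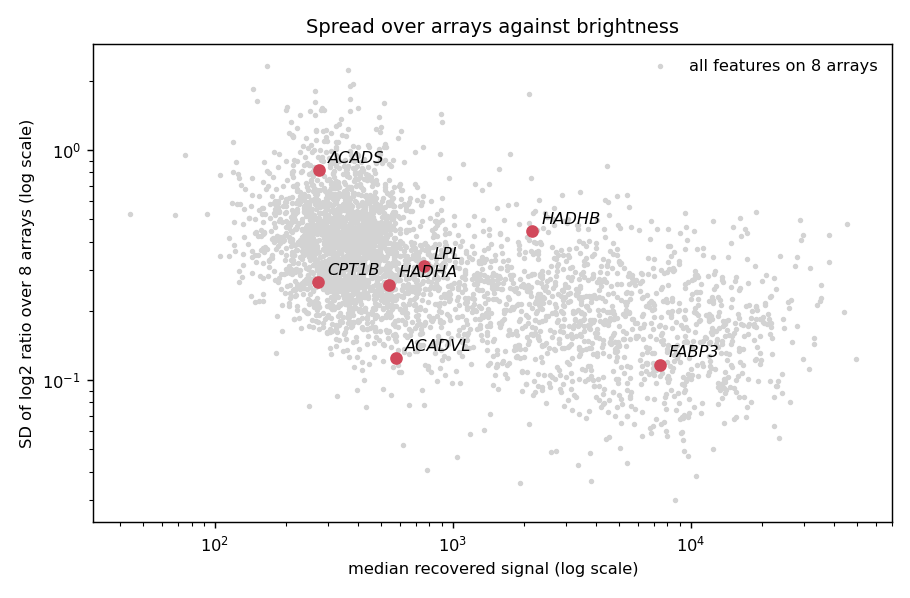
SD of the log2 ratio over the 8 arrays against the median recovered signal, both on log axes, for all 3640 features measured on every array (grey) and the 7 fatty acid genes among them (red). FABP3 lies at a high signal with a small spread, ACADS at a low signal with a spread above that of 95.9% of features, and HADHB above most features of its signal class.

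By couple, the genes were split near the middle. Those above 0 numbered 4 of 8 in couple 1, 4 of 9 in couple 2, 4 of 9 in couple 3 and 3 of 7 in couple 4, against 48.9%, 49.3%, 49.6% and 45.8% of all features. The means over the genes were 0.0026, 0.0077, -0.0057 and 0.20, and the medians were -0.022, -0.058, -0.030 and -0.014. The mean of couple 4 thus stood above its median, with ACADS at 0.89 and HADHB at 0.68 as the highest values and FABP3 at -0.20 as the lowest. Turned, the genes above 0 numbered 5 of 8, 6 of 9, 5 of 9 and 1 of 7, the means were -0.029, 0.042, -0.043 and -0.23, and the medians were 0.022, 0.017, 0.084 and -0.13. The turned share of all features was not computed by couple, and in the fit over couples it was 47.4%. Couple 4 thus had the highest mean of the couples in the likely reading and the lowest when turned. Both extremes rest on its array with high energy in dye 3, whose sign the turning changes. The genes measured on all arrays had a mean of 0.43 there and -0.026 with high energy in dye 5.

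Other genes of fatty acid use gave no call in either direction. Of 22 further genes for uptake, activation and the carnitine shuttle, 7 had a spot and were tested, 0 passed, and all 7 of these lay below 0, with a median of -0.084. Turned, 3 of the 7 lay above 0 and the median was -0.017. They were CRAT, GOT2, FABP5, DBI, FABP4, ACSL1 and SLC25A20. CRAT, the carnitine acetyltransferase, had -0.62 ± 0.32 (turned 0.29, adjusted p = 0.996 in limma). Its couple means were -0.17, -0.0078, -0.40 and -1.70, so couple 4 dominated, and the ratio without that couple was -0.17. GOT2, an aspartate aminotransferase also found at the plasma membrane as a fatty acid binding protein, had -0.15 ± 0.12 in 3 couples (turned -0.21; -0.035 and -0.25 without couples 2 and 3). FABP5 had -0.14 ± 0.17 in 3 couples (turned 0.065; -0.087 and -0.39 without couples 3 and 4). ACSL1, the main acyl-CoA synthetase of muscle, had a recovered signal of 13980 and a ratio of -0.063 ± 0.088 (turned -0.017), with an interval of -0.28 to 0.16.

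Of 29 further genes for beta-oxidation and electron transfer, 10 had a spot and 9 were tested. None of the 9 passed in limma, 1 had an unadjusted p under 0.05, 6 lay above 0 (turned 5) and 3 below, and the median was 0.079 (turned 0.020). The one at an unadjusted p under 0.05 was PCCB, a subunit of propionyl-CoA carboxylase, which handles the remnant of fatty acids with an odd number of carbons. PCCB had 0.39 ± 0.13 in 3 couples (turned -0.045, adjusted p = 0.996 in limma), with couple means of 0.13, 0.48 and 0.56 in couples 2 to 4, and it was above 0 on 6 of 6 arrays (turned, on 3 of 6). ECI2, an isomerase for unsaturated chains, had 0.17 ± 0.11 (turned 0.020; 0.059 without couple 4). ECH1, which also serves unsaturated chains, had 0.12 ± 0.085 (turned 0.055), and all 4 of its couple means lay above 0, from 0.029 to 0.16 (turned, 1 of 4).

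Of 21 regulators of fatty acid use, 6 had a spot and 4 were tested, with 1 above 0 (turned 2), 3 below and 0 passing. PPARA, a receptor that drives genes of fatty acid oxidation, had couple means of -0.18, 0.40, -0.99 and -0.16, and a ratio of -0.16 ± 0.27 (turned 0.39). Without couples 1, 2 and 3 it was -0.25, -0.40 and 0.022. PRKAG1, a subunit of the AMP-activated kinase, had -0.15 ± 0.30 (turned -0.21; -0.50 and 0.22 without couples 2 and 4), and ESRRA 0.030 ± 0.080 (turned 0.0052; 0.017 without couple 4).

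**Figure D4:**
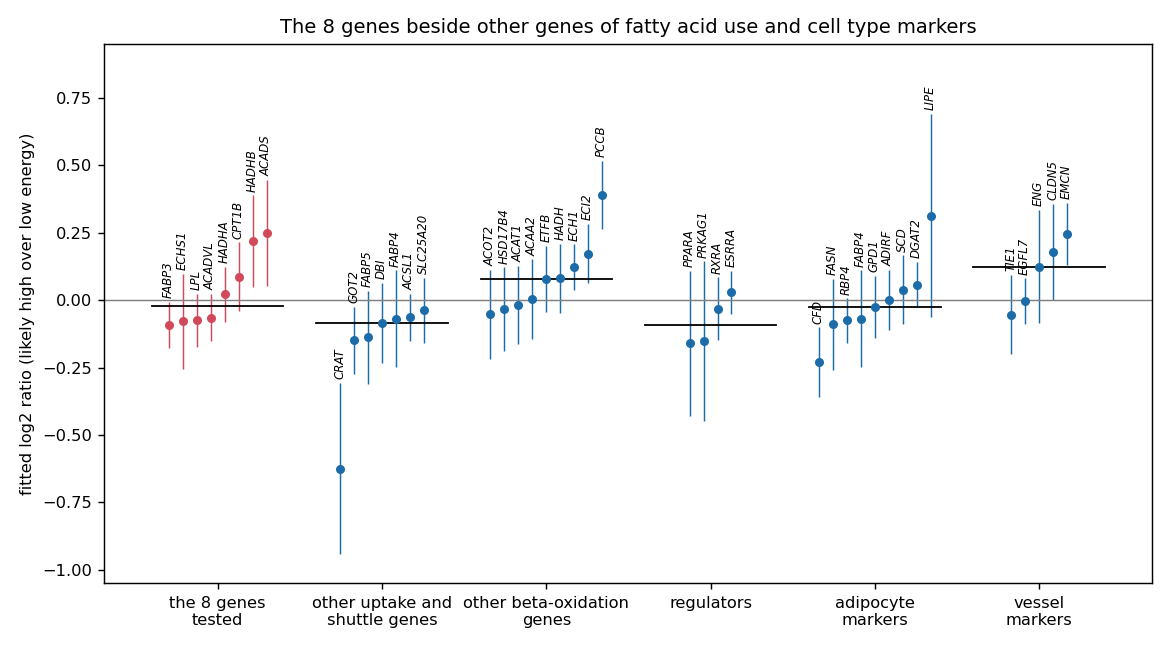
Fitted log2 ratio (likely high over low energy, points, with limma's SE as bars) of the 8 fatty acid genes tested and of the genes of 5 other lists. Black lines are list medians. The 8 genes run from -0.092 to 0.25, all 7 other uptake and shuttle genes tested lie below 0 (turned, 3 of the 7 lie above), and PCCB has the highest ratio shown, 0.39 (turned -0.045).

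Markers of fat cells, vessels, fibre types and mitochondria were set beside the genes, since LPL and CD36 are also made in fat and CD36 in capillaries. Of the adipocyte markers 10 of 17 had a spot and 9 were tested, with 4 above 0 (turned 4), 5 below and a median of -0.025 (turned -0.019). The fat cell hormones LEP and ADIPOQ had no named spot. CFD had -0.23 ± 0.13 in 3 couples (turned -0.29; -0.097 without couple 4), RBP4 had -0.075 ± 0.082 (turned 0.17), and LIPE, the hormone-sensitive lipase, had 0.31 ± 0.38 (turned -0.12; 0.56 and 0.037 without couples 1 and 3). FABP4, the fatty acid binding protein of fat cells and capillaries, had -0.068 ± 0.18 (turned 0.15). The mean of the adipocyte markers in couples 1 to 4 was -0.0046, 0.089, 0.15 and -0.16.

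Of 13 vessel markers 7 had a spot and 5 were tested, 3 above 0 (turned 3) and 2 below, with a median of 0.12 (turned 0.099) and couple means of -0.012, 0.10, 0.074 and 0.14. EMCN had 0.25 ± 0.12 in 3 couples (turned 0.15), CLDN5 0.18 ± 0.18 (turned -0.10; 0.27 and -0.047 without couples 2 and 4) and ENG 0.12 ± 0.21 (turned 0.14). ENG was 0.20, 0.33, -0.0032 and 0.051 without couples 1 to 4. Of 13 slow fibre genes 12 were tested, and all 12 lay below 0, while turned 7 of the 12 lay above 0. Their median was -0.088 (turned 0.0015), with means of -0.050, -0.096, -0.093 and -0.18 in couples 1 to 4. Of these, 2 had an unadjusted p under 0.05 and 0 passed. MB, the oxygen store myoglobin, had -0.32 ± 0.10 (turned 0.22), TNNT1 -0.21 ± 0.080 (turned -0.047) and TNNI1 -0.21 ± 0.10 (turned 0.078). Of 11 fast fibre genes tested, 7 lay above 0 (turned 5), with a median of 0.057 (turned -0.0035). MYL1, which had an unadjusted p under 0.05, stood at 0.37 ± 0.10 (turned -0.036), TPM1 at 0.24 ± 0.11 (turned 0.037), and MYH1, below 0, at -0.17 ± 0.11 (turned 0.060; -0.27 without couple 2).

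Of 15 mitochondrial genes tested outside beta-oxidation, 7 lay above 0 (turned 6), with a median of -0.026 (turned -0.013). CS, citrate synthase, had 0.27 ± 0.14 (turned -0.019), ATP5F1B -0.17 ± 0.098 (turned -0.013) and HSPD1 0.15 ± 0.11 (turned 0.24; 0.065 and 0.24 without couples 2 and 4). Blood markers (4 tested, 2 above 0, turned 4) had a median of -0.0018 (turned 0.099), with AHSP at -0.27 ± 0.16 (turned 0.17; -0.44 and -0.068 without couples 2 and 4), HBB at 0.038 ± 0.10 (turned 0.094; -0.0042, 0.023 and 0.14 without couples 2 to 4) and HBA1 at -0.025 ± 0.10 (turned 0.029; -0.072, 0.013 and 0.0036 without couples 1, 3 and 4). Immune markers (5 tested, 2 above 0, turned 3) had a median of -0.018 (turned 0.030), with C1QA at -0.34 ± 0.16 (turned -0.096; -0.17 without couple 2), AIF1 at 0.17 ± 0.094 (turned 0.030; 0.093 without couple 2) and CSF1R at 0.23 ± 0.20 (turned 0.060; 0.098 and 0.37 without couples 3 and 4). No gene of any of these lists had an adjusted p under 0.05, and the part of these cell types in the ratios of the fatty acid genes was not tested.

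The genes most like the mean of the fatty acid genes over the arrays were sought among 1921 named genes measured on all 8 arrays. The mean of the 7 fatty acid genes with complete values was -0.066, 0.11, 0.041 and -0.026 with high energy in dye 5, and 0.0053, -0.14, -0.052 and 0.43 with high energy in dye 3, for couples 1 to 4. The 0.43 rested on ACADS at 1.97 and HADHB at 1.21, whose highest spots there had recovered signals (lower bounds on brightness) of 63 and 26. On that array LPL, FABP3, CPT1B, ACADVL and HADHA had -0.47, -0.074, 0.067, 0.11 and 0.22. The closest were PDCD5 (Pearson's r = 0.95), DSP (0.95), ZNRD2 (0.94), DEFA4 (0.94) and HSPE1 (0.92), over 8 arrays of 4 couples. These points share RNAs within couples. The likeness leaned on the couple 4 array with high energy in dye 3, without which the values were 0.81, 0.73, 0.64, 0.58 and 0.41 in the same order. The ratios of these genes were 0.0075 ± 0.089, 0.19 ± 0.28, 0.41 ± 0.31, 0.19 ± 0.16 and 0.14 ± 0.29 (turned -0.016, -0.17, -0.41, -0.22 and -0.40), and without couple 4 they were -0.053, -0.20, -0.048, -0.020 and -0.26.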

How the data were processed

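The table the authors deposited holds, judging from its values, a log2 ratio between channels for every spot. Cy3 and Cy5 labelled cDNA was hybridised competitively and scanned on a ScanArray LITE, per the labels and design text. How spots were filtered, background-corrected and normalized is not stated there, and array medians already lay between -0.0071 and 0.012. Symbols came from the platform annotation, whose accessions are human. No sequence of the probes or genes was used.

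Arrays were centred on their medians, spots of a gene were averaged, and the 2 arrays of a couple were averaged. Features with both orientations in at least 3 couples were tested with limma 3.58.1 in R 4.3.3 (lmFit, eBayes, two-sided), blocking on the shared high energy RNA (correlation preset to 0.5) and calling features at a Benjamini-Hochberg adjusted p of 0.05. SEs come from limma after its variances were drawn towards that of all features, and 95% intervals are unadjusted. The script was tested on simulated data with independent couples and known shifts larger than any fitted ratio of the fatty acid genes. That test covers neither the shared sample nor shifts as small as those ratios. The recovered signal was the larger number of the simplest continued-fraction ratio matching the digits of a value, and the lesser number was under 5000 for 85.9% to 97.1% of values. The precision is limited by the 4 couples, of which couples 1 and 3 share high energy sample 40. Genes named were all members, up to 3 genes of each list with the smallest p, and the 5 genes most like the members' mean; ACSL1, FABP4 and single spots were added after their values were seen. Members and lists were chosen with earlier results of these data known. Alternatives covered centring, scaling, spots, missing values, brightness, the block, dyes and couples.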

Additional observations from a re-analysis of the deposited data

Results flagged for a closer look

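ACADS in couple 4 had a mean log2 ratio of 0.89, and the gap to the next couple took up 0.858 of the range of the 4 couples, above Dixon's 95% limit for 4 values. Chance passes that limit in about 1 of 20 groups of independent values with equal spread, and 7 genes were looked at. These couples do not meet that condition, so the rate here is not known. Couples 1 and 3 share a sample, and array SDs were 0.34 and 0.37 in couple 1 and 0.50 and 0.70 in couple 4. The ACADS value rested on the array with high energy in dye 3, where 1 spot was measured, and the dye swap had -0.19. Of all arrays, that array had the lowest share of spots with a value, 77.6%.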

How the results depend on the processing

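No feature passed under any of the alternatives run, and no fatty acid gene did. The number of features at an unadjusted p under 0.05, 190 as reported, was 106 with spot values of a lower recovered signal left out, 310 with independent couples, 353 with all 8 arrays and the couple as a block, 330 with a dye term added, 99 with high energy in dye 5 only, and 107 to 284 without 1 couple (107 without couple 2 and 122 without couple 4). Turned, it was 133, and 260 with independent couples, and 75 to 223 without 1 couple (75 without couple 2, 223 without couple 1 and 207 without couple 3).

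Over the settings of the 8 genes, 126 of 148 values kept the sign of the reported ratio, with FABP3 and ACADVL negative in all of theirs. Some settings only repeat an estimate, so the 148 values are not separate checks and the count overstates the agreement. FABP3 kept its -0.092 with the median of spots, with all 4 couples required and with no filter on missing values. It had the same -0.079 with independent couples and in both fits of 8 arrays. Turned, LPL, ACADS, HADHA and HADHB had 0.17, -0.22, -0.064 and -0.14. With high energy in dye 5 only, LPL had 0.096, HADHA -0.042 and ECHS1 0.053, and in dye 3 only CPT1B had -0.023 and ECHS1 0.033. Spot 3 of CPT1B alone had -0.28, spot 1 of ACADS -0.28 and spot 1 of HADHB -0.00050. HADHA had -0.0039 with independent couples and in both fits of 8 arrays. ECHS1 had 0.13 with no filter on missing values, and 0.036 and 0.040 in the fits of 8 arrays without and with a dye term. Leaving out 1 couple gave ACADS -0.023 to 0.38, HADHA -0.059 to 0.057 and ECHS1 -0.20 to 0.015. The cause of these changes was not tested, beyond ECHS1 gaining its couple 4 array where missing values were accepted. The median of the arrays, an alternative chosen after the data were seen, is among the settings counted.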
